A study of Mus musculus with 4 samples.

Results

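The genotype difference common to both hemispheres was described in the cortex of *P4htm*-/- and WT mice after stroke. *P4htm* encodes the transmembrane prolyl 4-hydroxylase P4H-TM, an enzyme of the endoplasmic reticulum membrane that can hydroxylate the alpha subunit of hypoxia-inducible factor (HIF). HIF prolyl hydroxylases use oxygen to mark that subunit for destruction, so the family is known as an oxygen sensor, and P4H-TM is abundant in brain. All 4 arrays of the series were used, 1 for each of 4 conditions: the whole cortex of either side, contralateral or ipsilateral to the stroke, in each genotype. The mice carried the C57BL/6J strain label, were 3 months old and had undergone permanent occlusion of the left middle cerebral artery 24 h earlier, so the WT mice had the stroke as well. The *P4htm*-/- line had been repeatedly backcrossed to C57BL/6. Each array held the pooled RNA of 4 mice, and the contralateral and ipsilateral pools of a genotype came from the same mice.

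Each genotype is therefore represented by 1 independent pool, no test was possible, and no difference below has a p-value or a standard error. The values are RMA levels per probe set on a log scale taken as log2. For each gene, WT was subtracted from *P4htm*-/- within each side, and both differences were averaged. Of 18194 genes, 13076 were detected, meaning that both arrays of at least 1 genotype lay above a background of 4.78, below which 95% of 83 probe sets for receptors of smell, pheromones and taste lay on the arrays. Those receptor probe sets measure the scatter near background. The mean difference over both sides had an SD of 0.117 among them and of 0.129 among all detected genes. On a single side the SD among the receptor probe sets was larger, 0.178 on the contralateral and 0.197 on the ipsilateral side. Among all detected genes it was 0.148 and 0.191. The median of all detected genes was -0.01 on each side. Array medians ran from 5.53 to 5.55, and 59.2% to 59.8% of the probe sets on an array lay above background. *Ttr*, the most abundant transcript of the choroid plexus, read 14.06 in WT cortex and 13.62 in *P4htm*-/- ipsilateral cortex against 8.71 and 9.03 on the contralateral side. The 14 detected choroid plexus and ependymal markers had median genotype differences of -0.03 and -0.15, and the part of that tissue in the results was not tested.

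Few genes differed strongly the same way on both sides. A gene was counted as higher or lower when its mean difference was at least 1.5-fold, 0.585 on the log2 scale, and each side differed by at least 1.2-fold, 0.263 on that scale. By this rule 4 genes were higher in *P4htm*-/- cortex, which is 0.0306% of the detected genes, and 6 were lower, which is 0.0459%. They were *Hspa1b*, *Hspa1a*, *Avp* and *Me1* on the higher side and *P4htm*, *Spink8*, *Ppm1m*, *Dmkn*, *Gm2115* and *Tex52* on the lower side. Of these 10 genes 4 lie on chromosome 9, *P4htm* itself, *Spink8*, *Ppm1m* and *Me1*, and 6 on other chromosomes. Of the detected genes with a known chromosome, 750 lie on chromosome 9 and 12294 on all others. With at least 1.5-fold required on each side, 2 genes were higher, *Hspa1b* and *Hspa1a*, which is 0.0153%, and 3 were lower, *P4htm*, *Spink8* and *Ppm1m*, which is 0.0229%. Just outside the main rule lay *Ccl9* at a mean of -0.575, and just inside it *Tex52* at -0.585 and *Me1* at 0.615. The single-side lists overlapped little. Of 28 genes at least 1.5-fold higher on the contralateral side and 11 on the ipsilateral side, 2 were shared, 7.14% and 18.2% of the lists. Of 16 and 67 genes lower on these sides, 3 were shared, 18.8% and 4.48% of the lists. Across the detected genes, which are not independent replicates, the contralateral and ipsilateral differences had a Pearson r of 0.145.

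**Figure D1:**
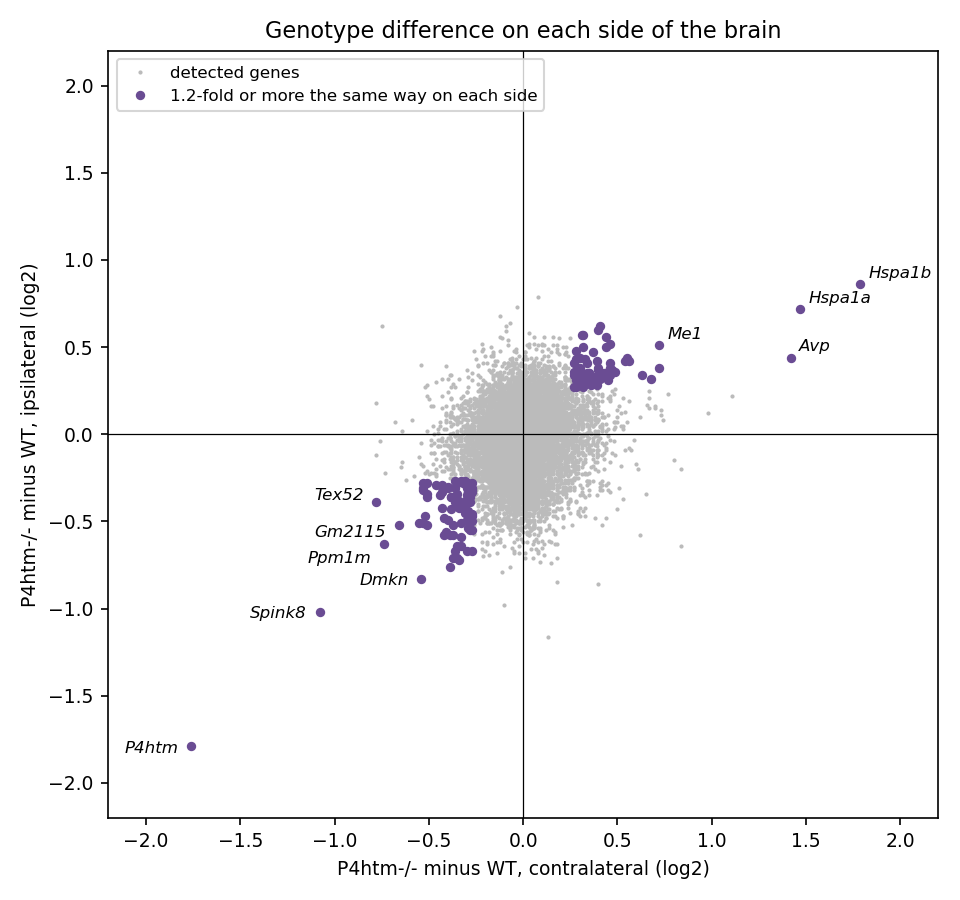
Log2 difference between *P4htm*-/- and WT cortex on the contralateral side (horizontal axis) and the ipsilateral side (vertical axis) for the 13076 detected genes in grey, from 1 pooled array per condition. Purple points are the 159 genes that differed by at least 1.2-fold the same way on each side, and the 10 genes of the main rule are named; *P4htm* lies at -1.76 and -1.79, *Hspa1b* at 1.79 and 0.86.

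*P4htm*, the targeted gene, had levels of 10.03 in contralateral and 10.02 in ipsilateral cortex of WT mice, against 8.27 and 8.23 in *P4htm*-/- mice. All pairs of levels below follow this order of sides. Its mean difference of -1.775, or 3.42-fold, was the largest in size of all detected genes. A second probe set of the gene gave -1.71 and -1.58. The *P4htm*-/- levels stayed above background, and whether the probes lie in the part of the gene that was removed was not determined. Of the 12 HIF hydroxylases and subunits 1 was above 0 on both sides and 3 below, *P4htm* among them, with medians of -0.025 and -0.07. *Egln1*, which encodes the main HIF prolyl hydroxylase PHD2, was at -0.14 and -0.07, and *Hif1an*, which encodes the asparaginyl hydroxylase FIH, at 0.00 and -0.11. Of 33 detected HIF target genes 8 were above 0 on both sides and 9 below, with medians of -0.02 on the contralateral and 0.01 on the ipsilateral side. Over all detected genes 22.2% were above 0 on both sides and 28.9% below, which are the shares to set beside such counts.

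Genes on the chromosome of *P4htm* were among the other genes of the main rule. *Spink8*, a serine protease inhibitor of the Kazal type, read 6.31 and 6.51 in WT cortex and 5.23 and 5.49 in *P4htm*-/- cortex, a difference of -1.08 and -1.02, and is the 26th measured gene to one side of *P4htm* on chromosome 9. *Ppm1m*, a protein phosphatase of the PPM family, read 9.21 and 9.09 in WT cortex and 8.47 and 8.46 in *P4htm*-/- cortex, and lies 77 measured genes away on the other side. Neither pair of WT values overlapped the *P4htm*-/- pair. Among the 50 measured genes on either side, 79 were detected and 4 differed by at least 1.2-fold on each side, or 5.06%, namely *Spink8*, *Ifrd2*, *Zmynd10* and *Cdhr4*. *Ifrd2*, an interferon-related regulator, was lower, at -0.52 and -0.47, and *Zmynd10*, which takes part in assembling the dynein arms of cilia, was higher, at 0.34 and 0.41. *Cdhr4*, of the cadherin family, measured -0.51 and -0.36, but its *P4htm*-/- values lay below background, so the differences are -0.08 and -0.02 or below. The 1.2-fold rule on each side was met by 18 of 750 detected genes of chromosome 9, or 2.40%, and by 141 of 12294 on all other chromosomes, or 1.15%. The median difference of the 79 neighbours was 0.01 and 0.00, close to that of all detected genes. Whether these neighbours differ through the removed gene or through flanking DNA from the strain in which it was made cannot be told apart here. In a list of 7 genes known to vary between inbred strains, 2 were above 0 on both sides and 4 below, with medians of -0.06 and -0.03.

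**Figure D2:**
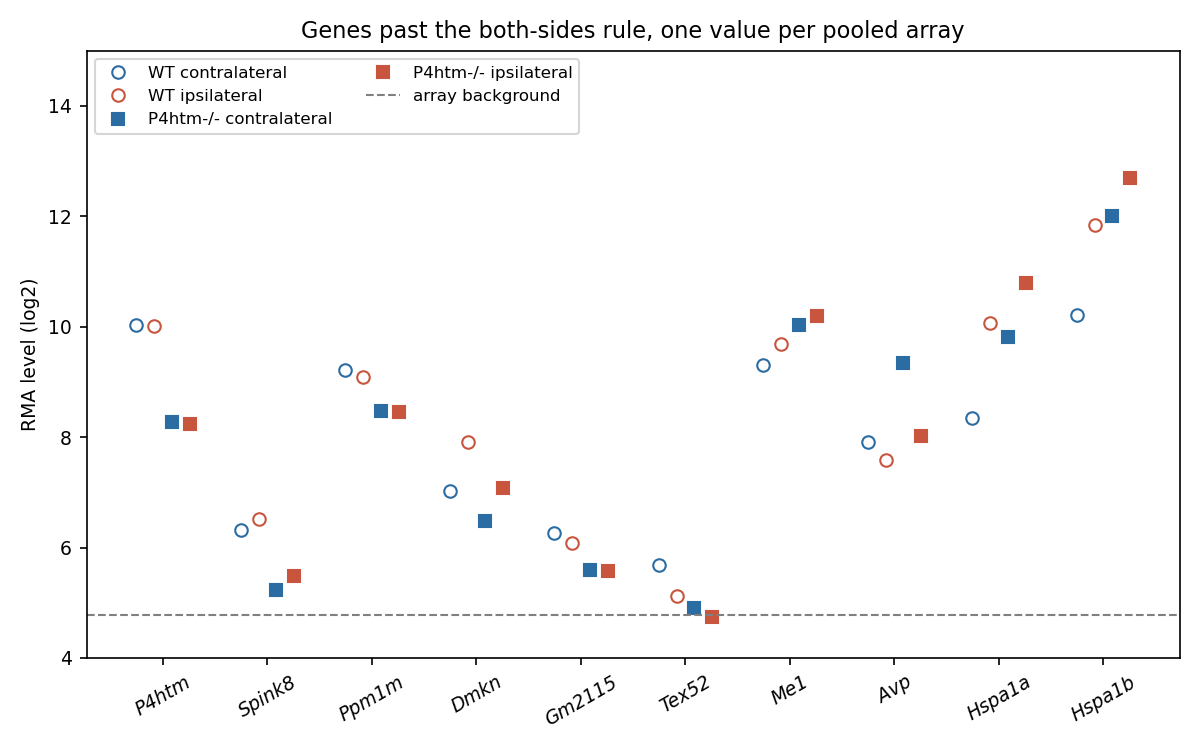
RMA level (log2, vertical axis) on each pooled array for the 10 genes of the main rule, ordered by their mean difference. Circles are WT and squares *P4htm*-/-, blue is contralateral and red ipsilateral, and the dashed line is the background of 4.78. For *Hspa1a* and *Dmkn* the arrays of the genotypes overlap.

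Among probe sets that name a single gene, the largest positive differences belonged to inducible HSP70 genes. Probe sets that list several alpha globin genes differed about as much and are given at the end. HSP70 proteins are chaperones that bind unfolded proteins, and their inducible genes are switched on by heat shock factors when proteins misfold. *Hspa1b* read 10.21 in WT contralateral and 11.84 in WT ipsilateral cortex, and 12 and 12.70 in *P4htm*-/- cortex, so that the contralateral side of *P4htm*-/- mice lay above the ipsilateral side of WT mice. The difference was 1.79 on the contralateral and 0.86 on the ipsilateral side, 2.51-fold in the mean, and 2 further probe sets gave a mean of 1.32 and 1.33. *Hspa1a* read 8.34 and 10.07 in WT cortex and 9.81 and 10.79 in *P4htm*-/- cortex. Its *P4htm*-/- contralateral value was below the WT ipsilateral value, so the genotypes overlapped across sides. Both genes are near-identical copies whose RNA can bind the same probes, and which of them differed is uncertain. Their promoters were alike too, with 247 of 250 bases before the start identical, or 98.8%. That of *Hspa1a* (RefSeq, GRCm38.p6, chr17:34972157-34972406, minus strand) is shown because both copies share its heat shock element core GAANNTTC, in capitals, at position -104 from the start:

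Hspa1a: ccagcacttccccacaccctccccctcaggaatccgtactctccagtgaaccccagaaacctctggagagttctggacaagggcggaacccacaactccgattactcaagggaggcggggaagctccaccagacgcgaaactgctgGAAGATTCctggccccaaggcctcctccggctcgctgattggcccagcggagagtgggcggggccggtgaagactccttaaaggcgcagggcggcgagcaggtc

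The other chaperones differed less. On either strand, GAANNTTC stood in this window of 7 of 26 detected heat shock factor targets with a promoter in the table, or 26.9%, and in 4.81% of 10508 detected genes. Of 31 detected heat shock factor targets 12 were above 0 on both sides and 4 below, with medians of 0.03 and 0.05. *Dnajb1*, the HSP40 partner of HSP70, read 11.05 and 11.06 in WT cortex and 11.30 on both *P4htm*-/- arrays. *Hspb1*, a small heat shock protein, was at 0.42 and 0.10, while *Hspb6*, another, was at -0.37 and -0.17. *Hspa8*, the constitutive HSP70, was at 0.00 and 0.15. Of 25 detected genes of endoplasmic reticulum stress, 6 were above 0 on both sides and 6 below, with medians of 0.01 and 0.00.

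The remaining genes of the main rule encode a hormone, an enzyme and proteins of varied kinds. *Avp*, which encodes the hormone vasopressin, read 7.92 and 7.59 in WT cortex and 9.34 and 8.03 in *P4htm*-/- cortex, higher by 1.42 on the contralateral and by 0.44 on the ipsilateral side. Vasopressin neurons lie in the hypothalamus, and of 10 detected hypothalamic peptide genes, *Avp* included, 2 were above 0 on both sides and 1 below. The other gene above 0 was *Hcrt*, which encodes orexin, at 0.25 and 0.17. The list had a median of 0.20 on the contralateral and of -0.20 on the ipsilateral side. *Oxt*, which encodes oxytocin, was at 0.65 and -0.34, *Gal* (galanin) at 0.80 and -0.15, and *Pmch* (melanin-concentrating hormone) at -0.75 and 0.62. The part of hypothalamic tissue in the *Avp* values was not tested. *Me1*, the cytosolic malic enzyme that supplies NADPH, read 9.31 and 9.68 in WT cortex and 10.03 and 10.19 in *P4htm*-/- cortex, and its second probe set gave 0.21 and 0.26. It lies on chromosome 9, 196 measured genes away from *P4htm*. *Dmkn*, which encodes dermokine, read 7.02 and 7.91 in WT cortex and 6.48 and 7.08 in *P4htm*-/- cortex, with overlap across sides. *Gm2115*, a gene model of unnamed function, read 6.26 and 6.09 in WT against 5.60 and 5.57, but its second probe set was at 0.04 and -0.17. *Tex52*, a gene named from testis expression, read 5.69 and 5.13 in WT against 4.91 and 4.74, the last below background, which leaves a mean of -0.56 or below.

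Immediate early genes lay higher in *P4htm*-/- cortex on both sides. These genes, mostly transcription factors and phosphatases, are switched on within minutes of neuronal activity through calcium and mitogen-activated protein kinase (MAPK) signaling. Of 40 detected members 26 were above 0 on both sides and 2 below, and the median difference was 0.075 on the contralateral and 0.185 on the ipsilateral side. Both *P4htm*-/- arrays exceeded both WT arrays for 18 of the 40, against 13.1% of all detected genes, and in 0 of them both were below both WT arrays, against 17.8%. With no rule on the mean, 69 genes, or 0.528% of those detected, were at least 1.2-fold higher on each side and 90, or 0.688%, lower. Of the immediate early list 4 met that rule and were higher, *Fos*, *Arc*, *Nr4a1* and *Dusp1*.

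*Fos*, a subunit of the transcription factor AP-1, read 9.61 and 9.95 in WT cortex and 10.15 and 10.37 in *P4htm*-/- cortex. *Arc*, which encodes a synaptic protein needed for lasting plasticity, read 8.96 and 8.66 in WT cortex and 9.36 and 9.26 in *P4htm*-/- cortex. *Nr4a1*, an orphan nuclear receptor, read 9.76 and 9.48 against 10.04 and 9.96. In each of these genes the lower *P4htm*-/- value lay above the higher WT value. *Egr2*, a zinc finger transcription factor, behaved differently: it read 6.88 and 6.18 in WT cortex and 6.96 and 6.97 in *P4htm*-/- cortex, with nearly all of the difference on the ipsilateral side. Members at or near 0 on the contralateral side included *Egr3* at -0.09, *Nr4a2* at 0.01 and *Nptx2* at 0.01, which were at 0.38, 0.27 and 0.40 on the ipsilateral side. *Bdnf*, which encodes brain-derived neurotrophic factor, was at -0.07 and -0.02. Neuronal markers were lower on the contralateral side and higher on the ipsilateral side, with medians of -0.05 and 0.14 over 23 genes, and their part in the ipsilateral values of the immediate early genes was not tested. Glutamate receptor genes had medians of 0.02 and 0.15, with 9 of 21 above 0 on both sides and 3 below.

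Dual-specificity phosphatases, which switch MAPKs off, were in part the same genes. Of 18 detected members 9 were above 0 on both sides and 3 below, with medians of 0.055 and 0.065. *Dusp1*, which acts on p38 and JNK in the nucleus, read 10.37 and 10.05 in WT cortex and 10.67 and 10.49 in *P4htm*-/- cortex. *Dusp5*, a nuclear ERK phosphatase, was at 0.26 and 0.30, *Dusp4* at 0.07 and 0.49 and *Dusp16* at 0.24 and 0.26, while *Dusp10* was at -0.34 and -0.01. Of 57 detected genes of the MAPK cascades themselves, 18 were above 0 on both sides and 14 below, with medians of 0.00 and 0.06.

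The promoters of *Fos* (RefSeq, GRCm38.p6, chr12:85473640-85473889, plus strand) and *Dusp1* (chr17:26508473-26508722, minus strand) are shown because both hold the core TGACG of the cyclic AMP response element, the site through which calcium and cyclic AMP signals reach many immediate early genes. Its matches are in capitals, read on either strand, and the last run of capitals in *Dusp1* is made of matches on opposite strands that overlap:

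Fos: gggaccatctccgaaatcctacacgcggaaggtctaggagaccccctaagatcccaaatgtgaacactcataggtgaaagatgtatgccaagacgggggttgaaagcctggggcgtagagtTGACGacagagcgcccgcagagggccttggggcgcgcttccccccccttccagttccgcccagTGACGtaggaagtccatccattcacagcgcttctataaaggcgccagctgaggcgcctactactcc

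Dusp1: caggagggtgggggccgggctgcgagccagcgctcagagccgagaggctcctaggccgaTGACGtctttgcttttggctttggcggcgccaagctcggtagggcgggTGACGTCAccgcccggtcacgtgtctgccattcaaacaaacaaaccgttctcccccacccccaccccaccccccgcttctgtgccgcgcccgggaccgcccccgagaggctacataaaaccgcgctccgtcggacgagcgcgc

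In the 250 bases before the start, TGACG on either strand stood in 19 of 32 detected immediate early genes with a promoter in the table, or 59.4%, in 26.7% of 10508 detected genes, and in 4 of 18 glucocorticoid-induced genes, or 22.2%. For the other motifs searched, AGAACA, the recognition core of the glucocorticoid receptor, stood in 2 of 18 glucocorticoid-induced genes, or 11.1%, and in 10.5% of detected genes, and the E-box CACGTG in 4 of 18 clock genes, or 22.2%, and in 8.42%. The lists were written from genes known to respond to such signals, so these shares describe the lists and not the arrays.

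Glucocorticoid-induced genes also lay higher on both sides. They are bound and activated by the glucocorticoid receptor after release of adrenal steroids. Of 21 detected members 15 were above 0 on both sides and 1 below, with medians of 0.17 and 0.14, nearly equal on the injured and the uninjured side. *Zbtb16*, a zinc finger repressor, read 8.69 and 8.74 in WT cortex and 9.24 and 9.18 in *P4htm*-/- cortex, and 2 further probe sets were above 0 on both sides as well. It lies on chromosome 9, but 515 measured genes away from *P4htm*. *Fkbp5*, a cochaperone that restrains the receptor, read 9.20 and 9.03 against 9.42 and 9.36, and *Sgk1*, a serum and glucocorticoid kinase, 11.30 and 11.13 against 11.52 and 11.45. *Per1* was at 0.35 and 0.25. For each of these 4 genes, named for the size of their differences, both *P4htm*-/- values exceeded both WT values. This held for 9 of the 21 members, against 13.1% of all detected genes. Others of the list hardly differed, such as the metallothionein genes *Mt1*, at 0.06 and 0.04, and *Mt2*, at -0.02 and 0.02. *Lcn2*, which also marks reactive astrocytes and neutrophils, was at -0.78 and 0.18, with its *P4htm*-/- contralateral value below background.

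Genes of the circadian clock formed the third group above 0. The clock is a loop in which *Arntl* and *Clock* activate the *Per* and *Cry* genes, whose proteins repress them. Of 22 detected members 14 were above 0 on both sides and 0 below, with medians of 0.08 and 0.165. Among the activators, *Arntl* read 8.29 and 8.07 in WT cortex and 8.45 and 8.37 in *P4htm*-/- cortex, and *Clock* was at 0.08 and 0.15. Among the repressors and output genes, *Per1* read 8.91 and 8.78 in WT cortex and 9.26 and 9.03 in *P4htm*-/- cortex, *Nfil3* was at 0.29 and 0.19, *Ciart* at 0.14 and 0.26 and *Hlf* at 0.15 and 0.24, whereas *Per2* was at -0.32 and 0.05 and *Dbp* at -0.12 and 0.00. The other 8 members were of mixed sign or at 0 on a side. The hour at which the mice were killed was not found in the sources. *Dusp1*, *Per1* and *Nfil3* each stand in 2 of these 3 lists. Without shared members the medians were 0.065 and 0.175 for 38 immediate early genes, 0.16 and 0.14 for 19 glucocorticoid-induced genes and 0.05 and 0.15 for 20 clock genes.

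**Figure D3:**
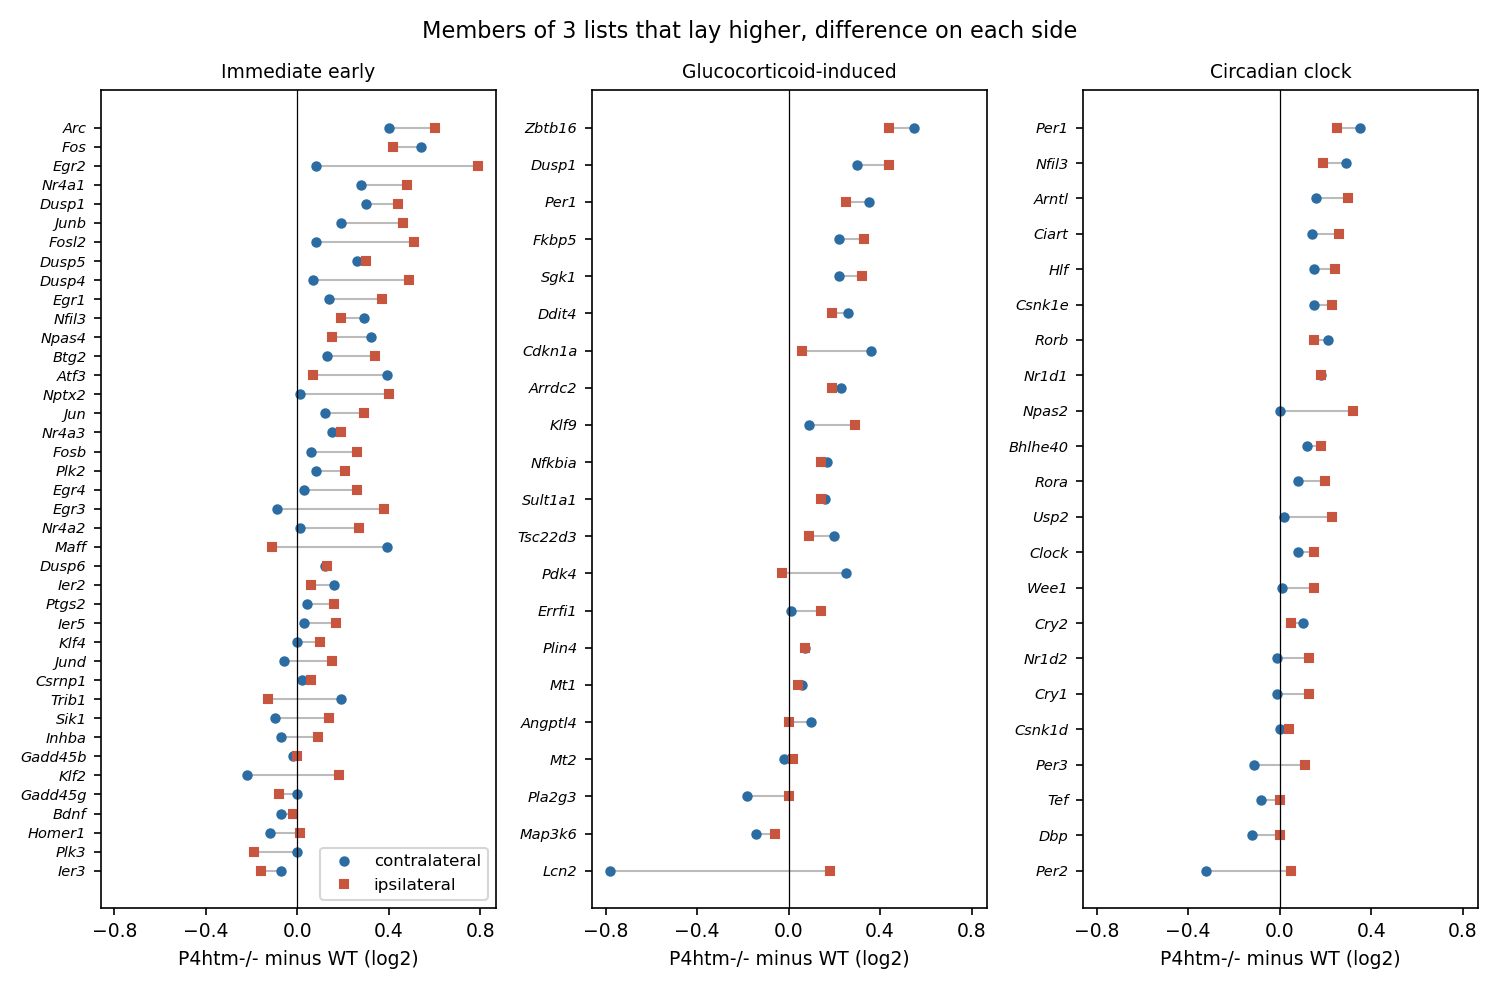
Log2 difference between *P4htm*-/- and WT cortex (horizontal axis) for each detected immediate early, glucocorticoid-induced and clock gene, with contralateral values as blue circles and ipsilateral values as red squares. Of 40, 21 and 22 genes, 26, 15 and 14 lie above 0 on both sides.

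Oligodendrocyte and myelin genes lay lower on both sides. Oligodendrocytes wrap axons of the cortex and white matter in myelin, a membrane rich in cholesterol and glycolipids. Of 33 detected members 0 were above 0 on both sides and 27 below, with medians of -0.12 and -0.20. For 19 of the 33 both *P4htm*-/- arrays were below both WT arrays, against 17.8% of all detected genes. In bulk tissue, fewer oligodendrocytes, less white matter in the dissected piece and less RNA per cell cannot be told apart. Markers of the hippocampus and thalamus, which border the cortex, had medians of -0.07 and -0.075, with 1 of 22 detected genes above 0 on both sides and 9 below, and the part of the dissection in the myelin values was not tested. *Opalin*, a membrane protein of myelinating cells, read 8.55 and 8.59 in WT cortex and 8.14 and 8.03 in *P4htm*-/- cortex. *Ppp1r14a*, a phosphatase inhibitor enriched in oligodendrocytes, read 8.21 and 8.34 against 7.88 and 7.83. *Tspan2*, a tetraspanin of myelin, read 9.77 and 9.62 against 9.50 and 9.30. These 3 were the members that met the 1.2-fold rule on each side, and in each the genotypes did not overlap. Of all detected genes 0.688% were lower by that rule.

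Among the other members, *Mal*, a proteolipid of compact myelin, was at -0.25 and -0.34 and *Mog*, on the outer surface of myelin, at -0.34 and -0.20. *Evi2a* was at -0.19 and -0.62 and the tetraspanin gene *Cd9* at -0.13 and -0.52, with more of the difference on the injured side. The most abundant transcript, *Mbp* (myelin basic protein), was at -0.07 and -0.06 near the top of the array's range. Of the transcription factors of the lineage, *Myrf* was at -0.19 and -0.30, *Sox10* at -0.12 and -0.25 and *Olig1* at -0.07 and -0.08. The 13 detected markers of oligodendrocyte precursors had medians of -0.07 and 0.01, with *Pdgfra* at -0.08 and -0.02 and *Cspg4* at 0.06 and 0.25.

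Genes of cholesterol synthesis, a pathway that is busy in myelin-forming cells and in astrocytes, lay lower on both sides too. Of 20 detected members 0 were above 0 on both sides and 12 below, with medians of -0.095 and -0.145. *Fdps*, which makes farnesyl pyrophosphate, read 8.68 and 8.77 in WT cortex and 8.41 and 8.49 in *P4htm*-/- cortex, and alone of the list met the 1.2-fold rule. *Msmo1*, a sterol oxidase, was at -0.23 and -0.30 and *Nsdhl*, a sterol dehydrogenase, at -0.25 and -0.18. The controlling steps were closer to 0, with the HMG-CoA synthase gene *Hmgcs1* at -0.10 and -0.01 and the squalene epoxidase gene *Sqle* at -0.13 and -0.07. Of 31 detected genes of oxidative stress defence 4 were above 0 on both sides and 16 below, with medians of -0.05 and -0.10. *Gpx1*, which encodes glutathione peroxidase, was at -0.17 and -0.51, and *Gsta4*, a glutathione S-transferase, at -0.15 and -0.26, while *Slc7a11*, the cystine transporter, was at 0.30 and 0.12.

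Microglia markers had a median below that of all genes on both sides, with small differences. Microglia are the resident phagocytes of the brain. Of 24 detected members 2 were above 0 on both sides and 15 below, with medians of -0.11 and -0.08. Both *P4htm*-/- arrays were below both WT arrays for 4 of the 24, or 16.7%, against 17.8% of all detected genes, and 0 met the 1.2-fold rule on each side. *P2ry13*, a purine receptor, read 7.22 and 7.02 in WT cortex and 6.91 and 6.77 in *P4htm*-/- cortex. *Cd68*, of phagocyte lysosomes, read 6.78 and 7.78 against 6.67 and 7.23, *Aif1*, which encodes IBA1, 7.41 and 7.98 against 7.29 and 7.58, and *Tyrobp*, a receptor adaptor, 9.40 and 10.25 against 9.36 and 9.69. These 3 differed mainly on the injured side, and their WT ipsilateral values were the highest of the 4 arrays. *Laptm5*, of lysosomal membranes, was at -0.33 and -0.07, but its second probe set was at 0.03 and 0.09. The homeostatic markers *P2ry12* and *Tmem119* were at -0.07 and -0.08 and at 0.05 and 0.06. The chains of complement C1q, which microglia make, were at -0.09 and -0.07 for *C1qa*, -0.13 and 0.05 for *C1qb* and 0.01 on both sides for *C1qc*. In the complement list 2 of 14 were above 0 on both sides and 6 below. *Cfp* (properdin) was at 0.43 and 0.35, and *Cd55*, which restrains complement, measured -0.37 and -0.52 with its *P4htm*-/- ipsilateral value at background.

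**Figure D4:**
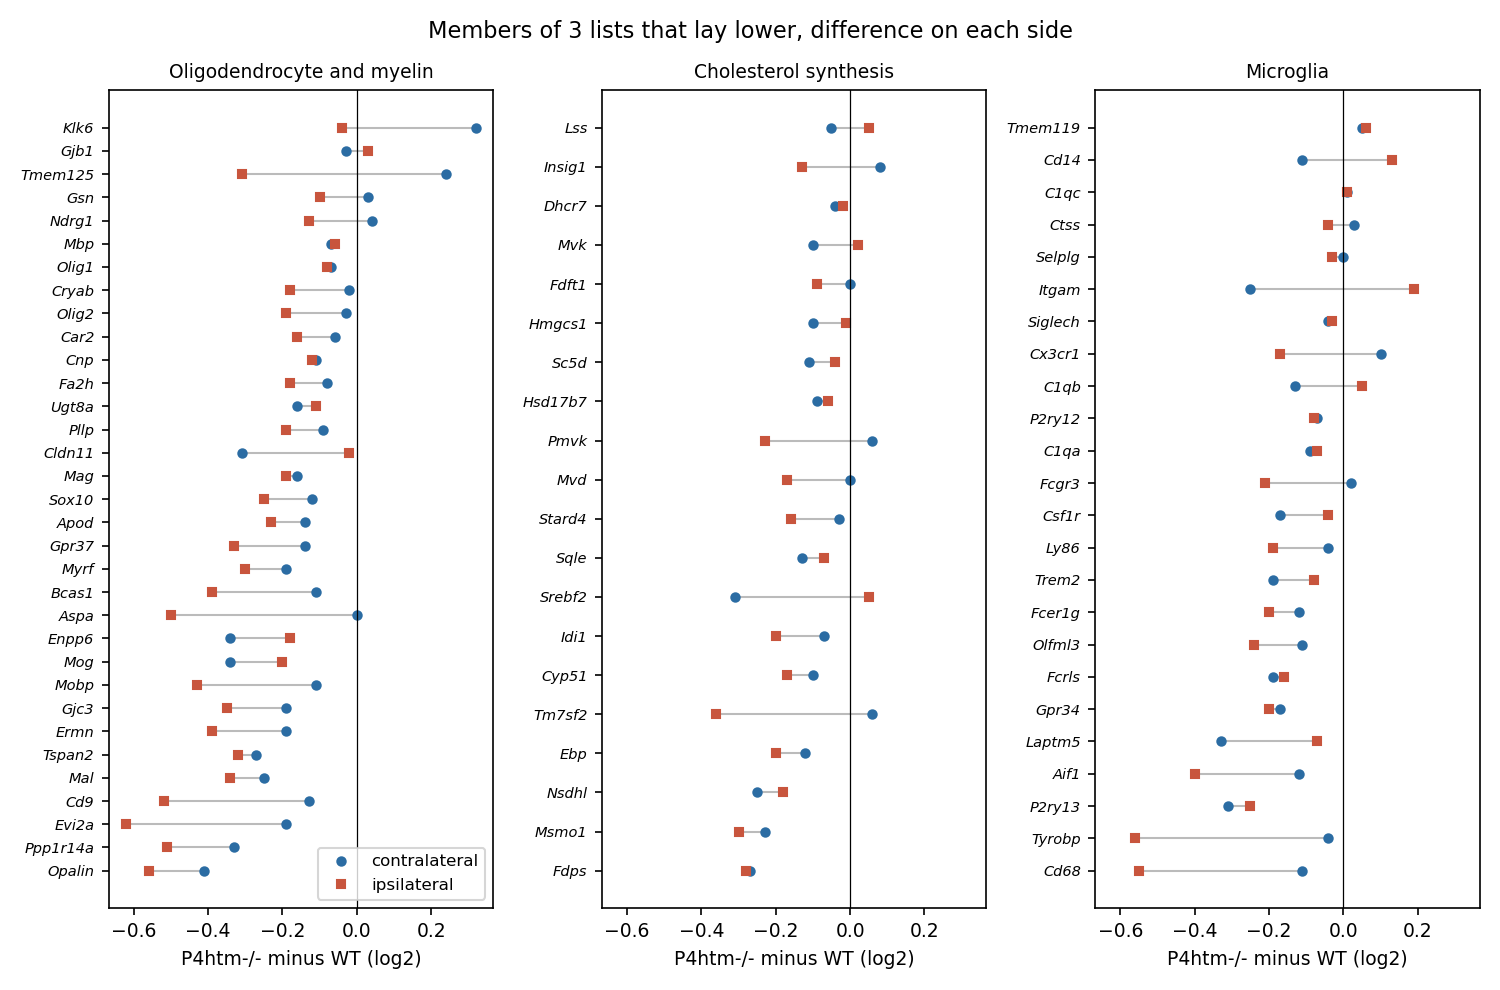
Log2 difference between *P4htm*-/- and WT cortex (horizontal axis) for each detected oligodendrocyte and myelin, cholesterol synthesis and microglia gene, with contralateral values as blue circles and ipsilateral values as red squares. Of 33, 20 and 24 genes, 27, 12 and 15 lie below 0 on both sides.

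Other immune lists lay near the median of all genes or slightly below it on both sides. Of 24 detected chemokines and their receptors 3 were above 0 on both sides and 8 below, with medians of -0.075 and -0.16. *Ccl9* read 5.26 and 7.82 in WT cortex and 4.87 and 7.06 in *P4htm*-/- cortex, and *Ccl8* 5.57 and 6.33 against 5.21 and 5.66. Both attract monocytes, and in each genotype both read higher on the injured side. Of 41 detected interleukins, TNF family genes and receptors 8 were above 0 on both sides and 19 below, with medians of -0.05 and -0.04. *Tnfrsf12a*, the receptor for TWEAK, was at -0.22 and -0.66 and *Cd40* at 0.28 and 0.26. *Il12a* measured -0.55 and -0.51, with both *P4htm*-/- values below background, so the differences are -0.05 and -0.30 or below.

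Interferon response genes had medians of -0.04 and -0.03, with 7 of 33 above 0 on both sides and 10 below. Within the list 2 genes met the 1.2-fold rule and were higher, as were 0.528% of all detected genes. They were *Rsad2* (viperin), which read 6.08 and 6.86 in WT cortex and 6.52 and 7.42 in *P4htm*-/- cortex, and *Irf7*, a transcription factor of the response, at 0.30 and 0.37. For the major histocompatibility complex 1 of 15 was above 0 on both sides and 8 below. *H2-Ab1*, a class II chain, was at -0.16 and -0.63. *H2-Aa*, its partner chain, was at -0.22 and -0.27, but 2 further probe sets had means of 0.02 and 0.05. Neutrophil markers were split, with 3 of 9 detected genes above 0 on both sides and 3 below. Among them *S100a8*, a subunit of calprotectin, read 4.72 and 7.20 in WT cortex and 5.28 and 7.62 in *P4htm*-/- cortex, its WT contralateral value below background. *Pglyrp1*, a peptidoglycan recognition protein, was at -0.35 and -0.39. It also stands in the list of endothelial and mural markers, so its difference is not particular to neutrophils.

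Vascular, astrocyte and meningeal lists had small shifts below the median of all genes on both sides. Of 29 detected endothelial and mural markers 5 were above 0 on both sides and 11 below, with medians of -0.06 and -0.10. *Tek*, the TIE2 receptor of endothelium, read 7.15 and 6.98 in WT cortex and 6.75 and 6.68 in *P4htm*-/- cortex, and *Emcn* (endomucin) 6.36 and 6.16 against 5.58 and 6.04. *Slc16a1*, a monocarboxylate transporter, was at -0.36 and -0.25, and *Kcnj8*, a potassium channel of pericytes, at -0.24 and -0.37. Tight junction genes did not shift together, with 8 of 33 above 0 on both sides and 10 below and medians of -0.05 and 0.03. Of 24 astrocyte markers 4 were above 0 on both sides and 13 below, with medians of -0.05 and -0.045, *Aqp4*, the water channel, at -0.20 and -0.11 and *Aldh1l1* at -0.15 and -0.22. Of 22 meningeal and fibroblast markers 3 were above 0 on both sides and 12 below, with *Col3a1*, a fibrillar collagen, at -0.12 and -0.55 and *Dcn* (decorin) at -0.42 and -0.10.

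**Figure D5:**
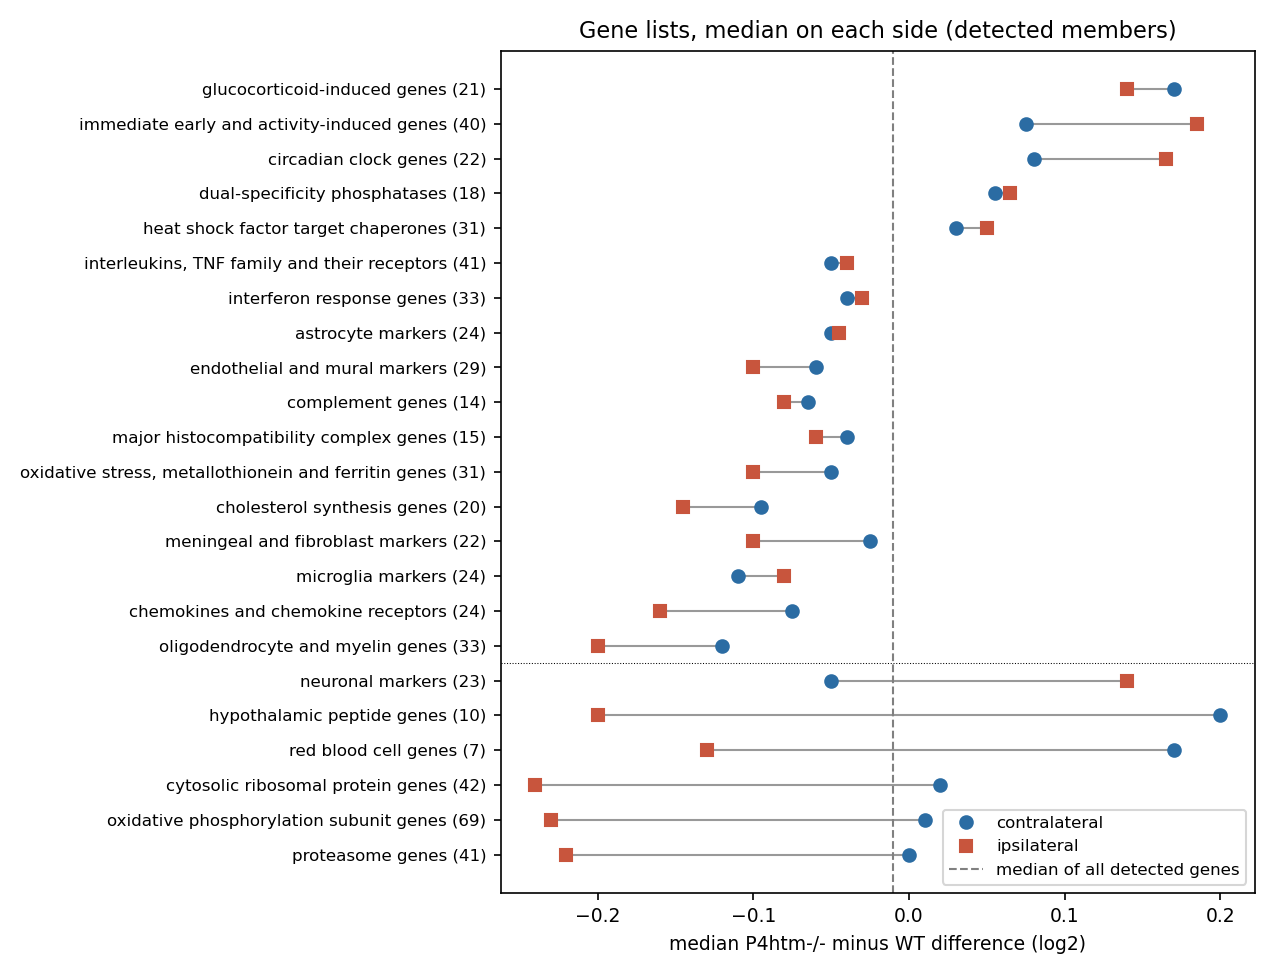
Median log2 difference between *P4htm*-/- and WT cortex (horizontal axis) of each gene list on the contralateral (blue circles) and ipsilateral side (red squares), with the number of detected members in brackets. Above the dotted line are the 17 described lists, with both medians on the same side of the median of all detected genes (dashed, -0.01). They run from glucocorticoid-induced genes at 0.17 and 0.14 to oligodendrocyte and myelin genes at -0.12 and -0.20. Other lists met this criterion too and are not drawn, among them endoplasmic reticulum stress genes, glutamate receptor genes and genes known to vary between inbred strains. Below the dotted line are 6 lists whose medians lie on opposite sides of the dashed line.

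Several large lists had medians near 0 on the contralateral side and lower ones on the injured side. The medians on the contralateral and ipsilateral side were 0.01 and -0.23 for 69 oxidative phosphorylation subunits, 0.02 and -0.24 for 42 cytosolic and 0.005 and -0.25 for 76 mitochondrial ribosomal proteins, and 0.00 and -0.22 for 41 proteasome genes. Of the mitochondrial ribosomal proteins 42.1% and of the proteasome genes 39.0% were below 0 on both sides, against 28.9% of all detected genes. For oxidative phosphorylation subunits and cytosolic ribosomal proteins the shares were 29.0% and 28.6%, about that of all detected genes. Of the mitochondrial ribosomal proteins 2 were above 0 on both sides and 32 below, and for all 32 both *P4htm*-/- arrays were below both WT arrays, 42.1% of the list against 17.8% of all detected genes. The same held for 19 of the 69 oxidative phosphorylation subunits, 13 of the 41 proteasome genes and 9 of the 42 cytosolic ribosomal proteins. The last of these is close to the share of all detected genes. None of the members of these 4 lists met the 1.2-fold rule on each side. Gene span went with the ipsilateral difference in the same way. The fifth of the genes with the shortest span had medians of 0.00 on the contralateral and -0.08 on the ipsilateral side, and the fifth with the longest span -0.02 and 0.07. Medians of cortical layer markers were -0.01 and 0.13 and those of striatal projection neuron markers -0.07 and 0.175.

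Reactome sets, a collection of curated pathways, gave a like picture. Of 672 sets with 10 to 200 detected genes, the medians of 110 lay above and of 115 below the median of all genes on both sides. Ordered by the smaller of both differences, the highest 5 were versions of the circadian clock sets and HSF1-dependent transactivation. Circadian Clock, with 19 detected genes, had medians of 0.06 and 0.18, and HSF1-dependent transactivation, with 17, had 0.06 and 0.15. All of the clock sets list *Avp* as a member. The lowest 5 were Glutathione conjugation at -0.09 and -0.195, Formation of Fibrin Clot at -0.11 and -0.09, RA biosynthesis pathway, which makes retinoic acid, at -0.085 and -0.16, Unwinding of DNA at -0.08 and -0.12, and Cholesterol biosynthesis at -0.08 and -0.14. The last shares most of its genes with the cholesterol list above.

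Some further genes, chosen after their values were seen, met the 1.2-fold rule on each side. *Crebbp*, a histone acetyltransferase that serves as coactivator for CREB, was at 0.32 and 0.29, while its other detected probe sets had means of 0.04 to 0.15. *Braf*, a kinase of the MAPK cascade, was at 0.33 and 0.43, with its brightest other probe set at -0.04 and 0.20. *Rasd1*, a small GTPase that dexamethasone induces, read 6.58 and 6.33 in WT cortex and 7.04 and 6.85 in *P4htm*-/- cortex, and *Hes5*, a Notch target of neural progenitors, read 8.16 and 7.85 against 7.78 and 7.42. Of the 69 higher genes 63 and of the 90 lower genes 75 had no overlap between the arrays of the genotypes. A gene that meets the 1.2-fold rule can overlap only where the sides of a genotype differ by at least 1.2-fold. These counts therefore follow largely from the rule and are no separate evidence of a genotype difference.

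As a check of the pools, transcripts of the Y chromosome were present on all 4 arrays. *Eif2s3y* read 8.42 and 8.40 in WT cortex and 8.13 and 7.93 in *P4htm*-/- cortex, *Kdm5d* 6.66 and 6.57 against 6.46 and 6.39, and *Uty* 5.98 and 5.86 against 5.79 and 5.70. All 3 were thus lower in *P4htm*-/- cortex on both sides. *Eif2s3y*, a subunit of a translation initiation factor, met the 1.2-fold rule on each side. *Xist* lay between 4.60 and 4.86, at background.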

How the data were processed

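Cortex RNA of 4 mice per condition was hybridized to Affymetrix mouse genome arrays. The authors deposited RMA levels on a log2 scale, 1 per probe set, and the submitters' processing notes give no version of RMA. RMA corrects background and equalizes the arrays' distributions, so a shift of all genes would be removed. The log base was taken as 2 from the range, 2.51 to 14.9. Of 45101 probe sets, 34958 name 1 gene in the platform annotation, 932 several and 9211 none. Symbols of 34754 were updated through RefSeq (GRCm38.p6) by Entrez ID, which also gave gene order and span. A gene was represented by its single-gene probe set with the highest mean. Genes, lists and rules were chosen with earlier results of these data known. The 46 lists were written from general knowledge. Named were *P4htm*, sex-linked genes, genes of the main rule, neighbours of *P4htm* past 1.2-fold on each side and up to 5 members per described list with the largest mean difference of one sign on both sides. List members outside that rule, among them *Bdnf*, *Mbp*, *Oxt*, *Hspa8* and the C1q genes, *Ttr* and *Hbb-b2* were chosen after their values were seen. Alternatives tried were other probe set choices, filters, folds, single sides, median centring and cyclic loess. The both-sides rule was tested on simulated data. Promoters are the 250 bases before the RefSeq start. Tools were Python 3.11.15, numpy 2.4.6, pandas 2.3.3, matplotlib 3.10.9, and limma 3.58.1 in R 4.3.3. The number of arrays limits the precision.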

Additional observations from a re-analysis of the deposited data

Results flagged for a closer look

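Probe sets that do not name a single gene were left out of the gene counts, and 8 of them were higher and 8 lower by the same rule. Among the higher ones are 3 that list the alpha globin genes, with mean differences of 1.155, 1.115 and 1.025, and 1 that lists beta globin genes, at 0.795. The brightest, an alpha globin probe set, read 9.73 and 11.10 in WT contralateral and ipsilateral cortex and 11.11 and 11.95 in *P4htm*-/- cortex. These 4 are all of the globin probe sets that list several genes. *Hbb-b2*, the globin gene detected through a probe set of its own, read 5.06 and 6.14 in WT cortex and 6.04 and 6.26 in *P4htm*-/- cortex. Of 17 measured red blood cell genes 7 were detected, and *Alas2*, of erythroid heme synthesis, and *Slc4a1*, the anion exchanger of red blood cells, were not among them. The sources used here say that the brains were perfused, and the part of blood left in the tissue was not tested. A probe set that lists the X-linked Xlr3 genes was higher by 0.68, and one that lists Bcl2a1 genes, which protect blood cells from apoptosis, was lower, at -0.595.

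The single-gene red blood cell list had medians of opposite sign, 0.17 on the contralateral and -0.13 on the ipsilateral side over 7 detected genes. The hypothalamic peptide genes did too, at 0.20 and -0.20 over 10 genes. Whether these sides differ was not tested.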

How the results depend on the processing

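No paired analysis was possible because each condition has a single array. The *P4htm* difference stayed between -1.79 and -1.71 in every alternative. The counts of 4 higher and 6 lower genes became 3 and 5 with the mean of a gene's probe sets, 4 and 7 after median centring and after cyclic loess, and 4 and 5 with all arrays above background. Without a detection filter they were 4 and 10. They were 2 and 3 with 1.5-fold on each side, 69 and 90 with 1.2-fold on each side and no rule on the mean, 2 and 2 with 2-fold in the mean, 28 and 16 on the contralateral arrays alone, and 11 and 67 on the ipsilateral arrays alone. Without a filter, fewer genes are removed, and single-side counts lack the demand on the other side. Of 92 other named genes, only *H2-DMa* changed sign, to 0.03 with the mean of its probe sets. With that choice 74 moved by less than the receptor SD of 0.117, and 17 moved further without a change of sign. Among these, *H2-Aa* went to 0, *H2-Ab1* from -0.395 to -0.053 and *Cd40* from 0.27 to 0.065. *Dusp16* went from 0.25 to 0.08 and *Evi2a* from -0.405 to -0.1275. Of the 17 described lists, 2 had a median of the mean differences of 0 in an alternative. It went from -0.07 to 0 for the major histocompatibility complex with the mean of probe sets. For heat shock targets it went from 0.015 to 0 after median centring. Centring also moved the medians of all detected genes, to -0.03 on the contralateral and -0.02 on the ipsilateral side, so the heat shock targets still lay above them. The other 15 lists kept their sign in the alternatives run, and the 10 Reactome sets did on either side alone. The lists and sets described were chosen because both sides shifted the same way, and the named genes for the same sign on both sides. Their signs on a single side therefore follow largely from that choice and are no separate evidence. The chemokine median went from -0.15 to -0.09 without a filter, and with the mean of probe sets the clock median went from 0.1325 to 0.0842 and the myelin median from -0.185 to -0.135. For a single gene, mean differences near the receptor SD of 0.117 cannot be told from scatter. The same holds for differences near 0.178 on the contralateral or 0.197 on the ipsilateral side alone. Variation between mice was not measured.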
